A study of Mus musculus with 6 samples.

Results

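The genes described here encode insulin-like growth factor 1 (Igf1), the receptors it can act through (Igf1r and Insr), IGF binding proteins (Igfbp2, Igfbp3, Igfbp4, Igfbp5, Igfbp6 and Igfbp7) and the protease Pappa. The 10 members were chosen by gene symbol, with earlier results of these data known. All 10 had a row among the 16874 genes of the deposited table. RNA was sequenced from cultures of fibroblasts, which make connective tissue, taken from the colon of C57BL/6 mice aged 12 weeks. There were 3 libraries labelled WT and 3 labelled Prkcz-/-, that is, without the gene for the atypical protein kinase C zeta. Cells of both groups were untreated, grew in medium with 10% fetal bovine serum and were harvested when about 80% confluent, 24 h after seeding. The series' design text also names cells with a control guide or a Sox2 guide and more replicates, but the labels of these 6 libraries name the genotype alone, and it is unknown here if any guide was present. Titles within a group share a prefix and differ in a serial number. No label states that the libraries stem from different mice or cultures. All p-values therefore reflect the spread among these samples alone, and that spread may be technical.

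The IGF system works through secreted ligands that activate receptor tyrosine kinases on the cell surface, which signal through IRS docking proteins to PI3K and AKT and drive growth and survival. Most secreted IGF is held by binding proteins, which keep it from the receptors until proteases cut them. Connective tissue cells are a main local source of IGF1 and of its binding proteins, and serum in culture medium also carries IGFs, so RNA levels do not give the amount of ligand around the cells.

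Levels are in FPKM, which divides reads by gene length and by library depth, so that levels of different genes can be compared. Depth was estimated from the steps between low values at 15900000 to 18200000 reads per library and overlapped between the groups. After genes with a mean under 0.5 FPKM were left out, 12130 remained. Of these, 68.7% differed between the groups (limma on log2(FPKM + 0.5), adjusted p under 0.05), 31.5% being higher and 37.2% lower with the Prkcz-/- label, with a median log2 change of -0.04. Any call below has to be read against that background. Prkcz went against its label, at 0.0433, 0.144 and 0.202 FPKM in WT libraries and 1.35, 1.32 and 1.17 FPKM in those labelled Prkcz-/-. FPKM over an entire gene cannot tell if the reads come from a part that the deletion spares. Whether labels or columns were exchanged was not tested. Higher and lower therefore mean in the libraries that carry the Prkcz-/- label, compared with WT. All 10 fibroblast markers on the list used were detected in both groups, with 6 higher and 4 lower. Col1a1 measured 1815 ± 88.7 FPKM in WT and 2972 ± 66.5 FPKM (SD, n = 3) in the others. The 4 lower ones, named after their values were seen, were the proteoglycan genes Dcn (log2 change -3.09) and Lum (-2.71) and the collagen genes Col3a1 (-0.73) and Col1a2 (-0.50). All 7 endothelial markers with a row stayed under 1 FPKM in every library, with 2 of them at 0 throughout the libraries labelled Prkcz-/-. Summed markers ranged from 5.23 to 6.25 FPKM in WT and from 5.88 to 6.07 FPKM in the others for leukocytes, with 1 of 9 markers at 0 throughout each group. The sums were 1.65 to 2.48 and 2.09 to 2.54 FPKM for epithelium (8 markers) and 0.257 to 0.771 and 0.426 to 0.930 FPKM for adipocytes (2). They were 0.684 to 0.987 and 1.497 to 1.65 FPKM for interstitial cells of Cajal (4). The 2 most abundant epithelial markers moved apart. Krt19 was lower, at 1.45 and 0.801 FPKM with overlapping groups. Cldn7, below the filter and so not tested, had higher values, at 0.0265 and 0.932 FPKM without overlap. Larger gaps were seen for mesothelium (3 markers), at 5.33 to 5.96 FPKM in WT, nearly all of it Msln, and 0.420 to 0.690 FPKM in the others. Glial and neuronal markers (7) summed to 16.5 to 20.2 and 36.0 to 37.6 FPKM, mostly the tubulin gene Tubb3, and smooth muscle markers (8) to 1642 to 1786 and 2055 to 2138 FPKM. Within smooth muscle, Acta2 went from 1179 to 1917 FPKM and Actg2 from 461 to 52.9 FPKM. Pericyte markers (5) summed to 5.50 to 6.70 and 5.16 to 5.82 FPKM and also moved apart, with Cspg4 lower, at 3.35 and 0.924 FPKM, and Notch3 and Rgs5 higher. The part of these markers in the results was not tested, and in bulk RNA more cells of a type and more RNA per cell cannot be told apart.

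Of the 9 members tested, 6 were higher and 2 lower, against 31.5% and 37.2% of all tested genes, and the median log2 change of the 9 was 0.46. The groups did not overlap in 7 of the 10 members, of which 6 were higher and 1 was lower, against 33.3% of tested genes higher, 39.4% lower and 72.7% in all. With so many of all genes called, the number of calls says little about the members, and what follows turns on their sizes and identities. A log2 change of at least 1 together with an adjusted p under 0.05 was reached by 7.29% of tested genes upward and 3.55% downward, and among the members by Igfbp2, Igfbp3 and Igfbp4 upward and by Igfbp6 downward. The DNA just before the start sites of these 4 genes is shown here because they carry the largest differences. The sequences are from RefSeq (GRCm38.p6), read on the strand of the gene, 5′ to 3′, and end at the base before the RefSeq start site. They are Igfbp4 at chr11:99040994-99041243 (plus strand), Igfbp2 at chr1:72824230-72824479 (plus strand), Igfbp3 at chr11:7213924-7214173 (minus strand) and Igfbp6 at chr15:102143936-102144185 (plus strand). Capitals mark exact matches, on either strand, to the motifs named below them.
Igfbp4: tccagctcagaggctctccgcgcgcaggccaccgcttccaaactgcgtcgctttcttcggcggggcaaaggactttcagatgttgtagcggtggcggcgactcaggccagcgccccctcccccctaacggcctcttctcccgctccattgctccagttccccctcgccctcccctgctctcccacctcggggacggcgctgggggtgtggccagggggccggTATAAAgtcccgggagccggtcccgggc
Igfbp2: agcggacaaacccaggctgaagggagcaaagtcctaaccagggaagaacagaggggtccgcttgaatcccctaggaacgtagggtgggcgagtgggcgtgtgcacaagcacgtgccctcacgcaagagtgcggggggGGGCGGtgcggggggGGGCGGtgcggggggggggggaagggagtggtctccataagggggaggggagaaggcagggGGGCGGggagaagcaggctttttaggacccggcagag
Igfbp3: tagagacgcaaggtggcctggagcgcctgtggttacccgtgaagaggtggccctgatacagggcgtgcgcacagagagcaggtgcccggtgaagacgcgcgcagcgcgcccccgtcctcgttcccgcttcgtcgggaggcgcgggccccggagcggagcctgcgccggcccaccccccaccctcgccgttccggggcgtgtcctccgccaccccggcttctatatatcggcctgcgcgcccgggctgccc
Igfbp6: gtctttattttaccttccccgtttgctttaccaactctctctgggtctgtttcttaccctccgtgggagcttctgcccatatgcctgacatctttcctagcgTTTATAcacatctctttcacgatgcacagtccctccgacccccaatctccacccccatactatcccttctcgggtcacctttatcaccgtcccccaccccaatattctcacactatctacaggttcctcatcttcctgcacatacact

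These 4 windows differ in base composition and in motifs. The windows before the genes that were higher had 69.2% (Igfbp4), 67.2% (Igfbp2) and 73.2% (Igfbp3) G and C, all above the upper quartile of 61.2% for 32851 annotated promoters, while the Igfbp6 window had 49.6%, near the median of 52.4%. The letters searched on both strands were TATAAA, the core element near many start sites, GGGCGG, which SP factors bind, CATTGT, a core that SOX factors bind, and GTAAACA, which FOXO factors bind. No match overlapped another. Positions count back from the RefSeq start. Igfbp4 held TATAAA at -28, and Igfbp6 held TTTATA, its reverse complement, at -148. Igfbp2 held GGGCGG at -113, -98 and -37, and Igfbp3 held no exact match to any of the 4 motifs. Near matches, such as the stretch tatatat in the Igfbp3 window, were not searched for. Among all promoter windows of the same length, 12.4% held TATAAA, 32.7% GGGCGG, 10.7% CATTGT and 3.17% GTAAACA. The matches describe letters only. Igfbp6 also has an annotated GENCODE M21 start downstream of the RefSeq one, so its window may not lie next to the start used in these cells.

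**Figure D1:**
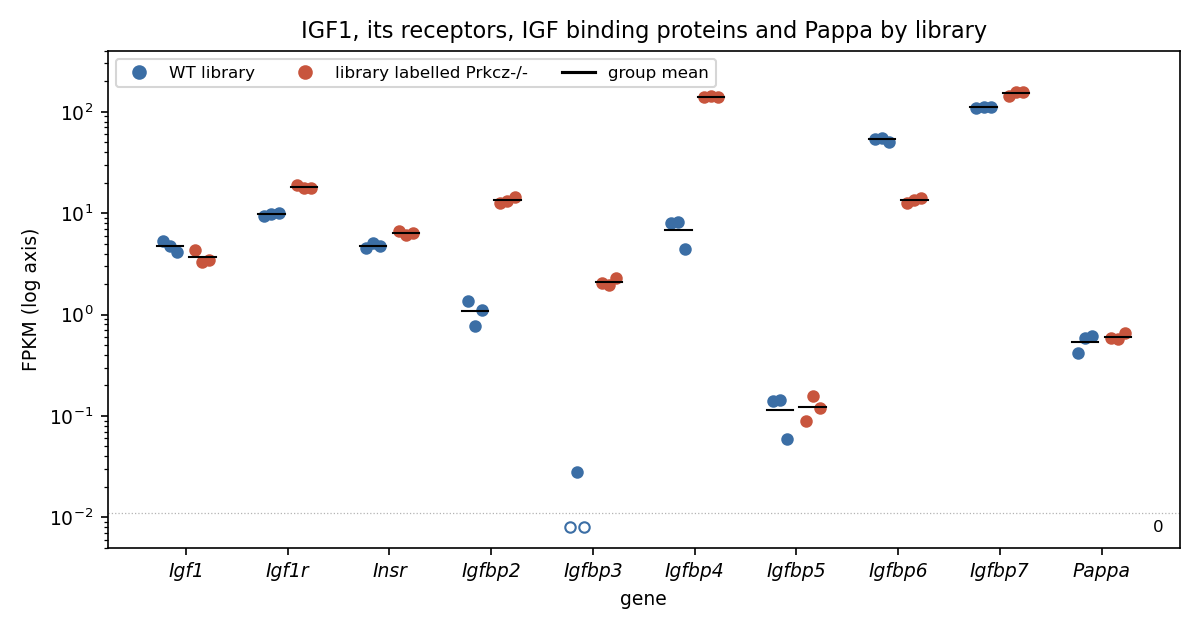
FPKM (log axis) of the 10 members in each library; blue points are WT libraries, red points libraries labelled Prkcz-/-, black lines group means, and open points on the line marked 0 are values listed at 0. Igfbp4 and Igfbp2 lie far higher and Igfbp6 lower in the libraries labelled Prkcz-/-, whereas Igf1, Igfbp5 and Pappa overlap between the groups.

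The ligand gene Igf1 (chromosome 10, 87858265 to 87937042, plus strand) encodes the secreted factor that binds IGF1R. It measured 5.34, 4.70 and 4.10 FPKM in the WT libraries and 4.31, 3.32 and 3.48 FPKM in those labelled Prkcz-/-. The groups overlapped, since the lowest WT library lay below the highest library of the other group. Igf1 was 21.5% lower on average, a log2 change of -0.31 (limma, SE 0.119, adjusted p = 0.0467), and an exact two-sided permutation test gave p = 0.2. The call lay close to the threshold and was lost when certain single libraries were left out. The limma adjusted p was 0.142 without WT replicate 1 and 0.0965 without WT replicate 2. It was 0.143 without Prkcz-/- replicate 2 and 0.124 without Prkcz-/- replicate 3. Without WT replicate 2 the log2 change hardly moved (-0.311) and its SE grew to 0.143. The call was also lost with some other scalings, at a limma adjusted p of 0.065 with median-ratio scaling and 0.108 after division by the FPKM sum. It was kept with quantile normalization (limma adjusted p = 0.00935). Leaving out WT replicate 3 (0.0245) or Prkcz-/- replicate 1 (0.0172) also kept it. Igf1 was lower under each of these settings, but whether it passed the threshold depended on the setting, so a difference from WT was not firm.

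**Figure D2:**
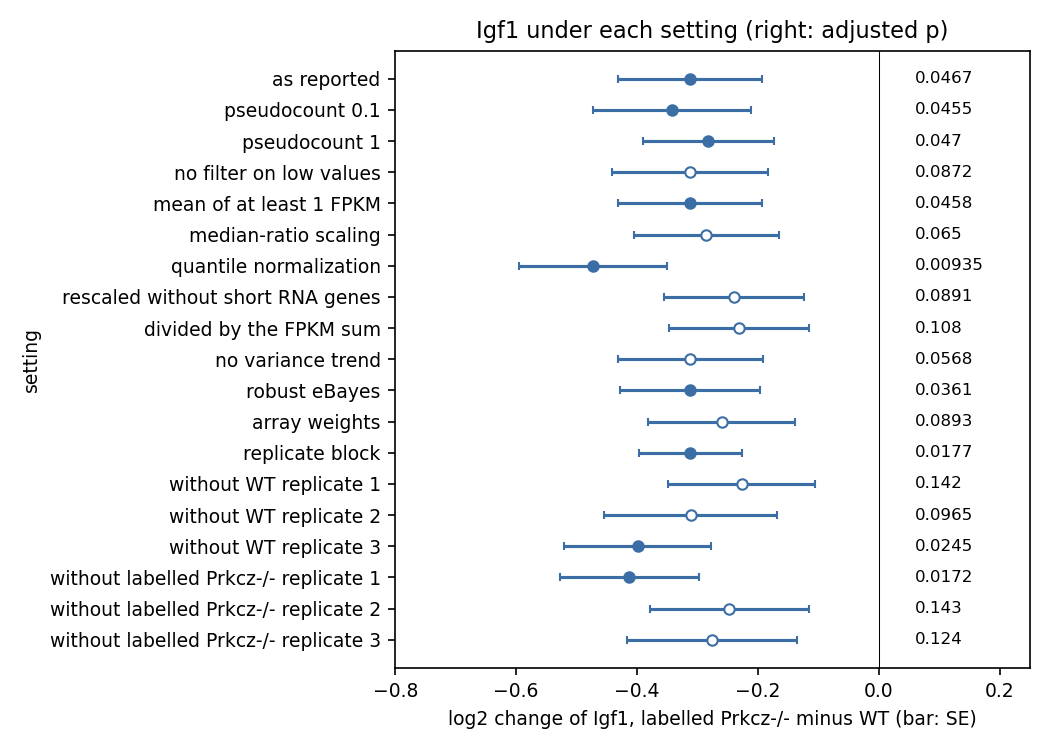
Log2 change of Igf1 (x axis, bars are SE) under each setting (y axis); filled points have a limma adjusted p under 0.05, open points do not, and the adjusted p is printed at the right. All points lie below 0, between -0.47 and -0.23, and the adjusted p runs from 0.00935 to 0.143.

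Igf2, the second IGF ligand and no member of the group, was listed at 0 in 2 WT libraries and measured 0.0646 FPKM in the third, against 0.750, 0.804 and 0.763 FPKM in the libraries labelled Prkcz-/-. That corresponds to an estimated 66.0 to 80.7 reads in each of the latter. Its mean was under the filter, so it was not tested in the reported fit. With no filter, its log2 change was 1.29 (limma adjusted p = 1.77e-05). Igf2 thus remained below Igf1 in each library.

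Both receptor genes were higher. Igf1r (chromosome 7, 67952827 to 68233668, plus strand), the tyrosine kinase receptor of IGF1, measured 9.36, 9.83 and 10.06 FPKM in WT and 18.8, 17.8 and 17.9 FPKM in those with the Prkcz-/- label. The groups lay well apart, with an increase of 86.1% in mean FPKM and a log2 change of 0.86 (limma, SE 0.049, adjusted p = 2.24e-06). Insr (chromosome 8, 3122061 to 3279617, minus strand), the insulin receptor, which can also pair with IGF1R into a hybrid receptor, measured 4.58, 5.04 and 4.71 FPKM in WT and 6.61, 6.13 and 6.38 FPKM in the others. Its groups did not overlap either, and the increase was 33.4%, a log2 change of 0.38 (limma, SE 0.0645, adjusted p = 0.00102). Igf1r rose by more than Insr, and the level of Igf1r per Insr transcript went from 2.04 ± 0.0938 in WT to 2.85 ± 0.0492 (SD, n = 3) in the libraries labelled Prkcz-/-. The ratio did not overlap between the groups, at 1.95 to 2.14 and 2.80 to 2.90. Per Igf1 transcript, Igf1r went from 2.10 ± 0.350 to 4.95 ± 0.518 (SD, n = 3).

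The binding protein genes held the largest differences, and they went in opposite directions. Igfbp4 (chromosome 11, 99041244 to 99054392, plus strand) encodes a binding protein known for holding IGFs away from their receptor until PAPP-A cuts it. It measured 8.05, 8.20 and 4.45 FPKM in the WT libraries and 139, 143 and 139 FPKM in those labelled Prkcz-/-. WT replicate 3 was the lowest, and the highest WT library was still far below every library of the other group. Mean FPKM was 20.3-fold higher, a log2 change of 4.30 (limma, SE 0.195, adjusted p = 6.78e-07). Only 0.371% of tested genes had an absolute log2 change at least as large.

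Igfbp2 (chromosome 1, 72824503 to 72852474, plus strand), whose product also binds integrins, measured 1.35, 0.777 and 1.10 FPKM in WT and 12.5, 13.3 and 14.3 FPKM in the libraries labelled Prkcz-/-. All WT libraries were low, at an estimated 39.38, 20.35 and 31.98 reads, and the groups did not overlap. Mean FPKM was 12.4-fold higher, a log2 change of 3.15 (limma, SE 0.134, adjusted p = 4.63e-07). Igfbp5 (chromosome 1, 72857932 to 72874884, minus strand), a matrix-binding relative whose annotated 3′ end lies 5457 bases from that of Igfbp2, stayed near the floor. Its values were 0.140, 0.144 and 0.0599 FPKM in WT and 0.0882, 0.155 and 0.120 FPKM in the others, an estimated 6.12 to 16.4 reads per library. The groups overlapped (exact permutation p = 0.8), and at this depth no difference was detectable. Igfbp5 was the 1 member below the filter, and with no filter its log2 change was 0.02 (limma, SE 0.0736, adjusted p = 0.862).

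Igfbp3 (chromosome 11, 7206086 to 7213923, minus strand) encodes the main carrier of IGFs in serum. It was listed at 0 in WT replicates 1 and 3 and measured 0.0279 FPKM in WT replicate 2, about 1.30 reads by the depth estimate. In the libraries labelled Prkcz-/- it measured 2.06, 1.94 and 2.30 FPKM, an estimated 96.1 to 118 reads each. The gene passed the filter only through the libraries labelled Prkcz-/-. Its log2 change of 2.35 (limma, SE 0.125, adjusted p = 1.59e-06) depends on the pseudocount and ran from 1.62 to 4.34 over the settings tried, each of them past the threshold, so no fold is given. Its neighbour Igfbp1 is not analysed here.

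Igfbp6 (chromosome 15, 102144362 to 102149511, plus strand), whose product prefers IGF2 over IGF1, was the binding protein gene that fell. It measured 54.5, 55.3 and 50.8 FPKM in WT and 12.6, 13.3 and 14.2 FPKM in those with the Prkcz-/- label. The 3 WT libraries were all high and the groups lay far apart. Mean FPKM went from 53.5 ± 2.43 to 13.4 ± 0.785 (SD, n = 3), a log2 change of -1.96 (limma, SE 0.0546, adjusted p = 5.2e-08), and 1.13% of tested genes had a log2 change that low or lower. Igfbp7 (chromosome 5, 77349240 to 77408041, minus strand), a secreted matrix protein with low affinity for IGFs, was the most abundant member in both groups. It measured 108, 113 and 111 FPKM in WT and 145, 158 and 156 FPKM in the others, without overlap. The increase was 38.1%, a log2 change of 0.46 (limma, SE 0.0412, adjusted p = 2.74e-05). Igf1, Insr and Igfbp7 overlap annotated genes on the opposite strand, and a count blind to strand would mix their reads. Of these neighbours only Polr2b, which overlaps Igfbp7, is analysed here, and it fell, from 47.9 ± 1.86 to 36.1 ± 0.688 FPKM (SD, n = 3).

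The protease gene Pappa (chromosome 4, 65124174 to 65357509, plus strand) encodes the metalloprotease that cuts IGFBP4 and IGFBP5. It measured 0.422, 0.588 and 0.610 FPKM in WT and 0.587, 0.568 and 0.659 FPKM in the libraries labelled Prkcz-/-. These values overlapped, and the log2 change of 0.09 (limma, SE 0.137, adjusted p = 0.575) was smaller than its error. Pappa was thus low in both groups while its substrate gene Igfbp4 differed 20.3-fold, although a miss of the threshold does not show that Pappa was equal. The exact two-sided permutation test gave p = 0.1, the smallest that 3 against 3 libraries allow, for each of the 7 members whose groups did not overlap, and p = 0.6 for Pappa.

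**Figure D3:**
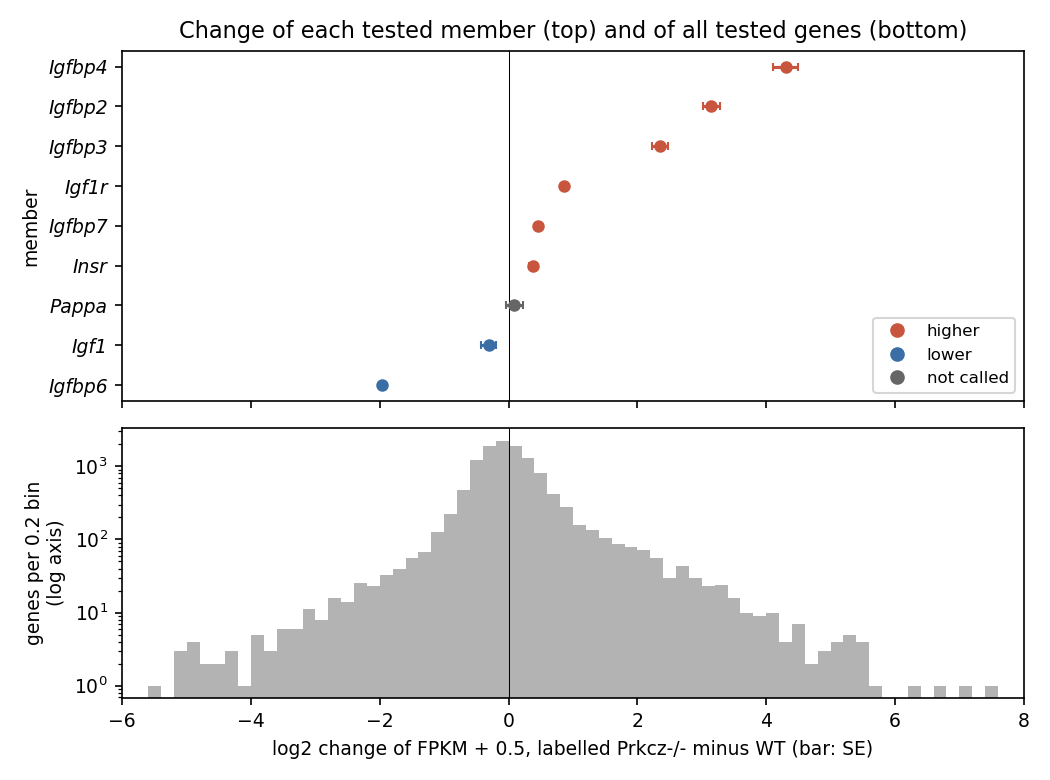
Top, log2 change of FPKM + 0.5 with its SE for the 9 tested members, coloured by call; bottom, number of genes per bin of 0.2 (log axis) for all 12130 tested genes on the same x axis. Igfbp4 at 4.30 and Igfbp2 at 3.15 lie in the upper tail and Igfbp6 at -1.96 in the lower tail, while Insr, Igfbp7, Pappa and Igf1 lie within the bulk of all genes.

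Added together, transcripts of the 6 measured binding protein genes rose in amount and changed in makeup. The summed level was 172, 177 and 168 FPKM in the WT libraries and 311, 330 and 326 FPKM in those labelled Prkcz-/-, an increase of 86.9%. Igfbp7 made up 64.3% ± 1.86 of the sum in WT and 47.5% ± 0.830 (SD, n = 3) in the libraries labelled Prkcz-/-. Without Igfbp7, which binds IGFs only weakly, the sum went from 61.6 ± 4.55 to 169 ± 2.64 FPKM, 2.75-fold higher. Within that smaller sum the leading gene differed between the groups. Igfbp6 held 85.1%, 85.8% and 90.05% of it in the WT libraries and 7.58%, 7.77% and 8.35% in the others. Igfbp4 held 12.6%, 12.7% and 7.89% in WT and 83.7%, 83.3% and 81.8% in the libraries labelled Prkcz-/-. With Igfbp7 left out, the WT libraries thus carried mostly Igfbp6 and the libraries labelled Prkcz-/- mostly Igfbp4, in every library. Igfbp2 held 1.76% ± 0.486 and 7.89% ± 0.485, and Igfbp3 reached 1.24% ± 0.114 in the libraries labelled Prkcz-/- (SD, n = 3). These are shares of RNA, not of protein.

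**Figure D4:**
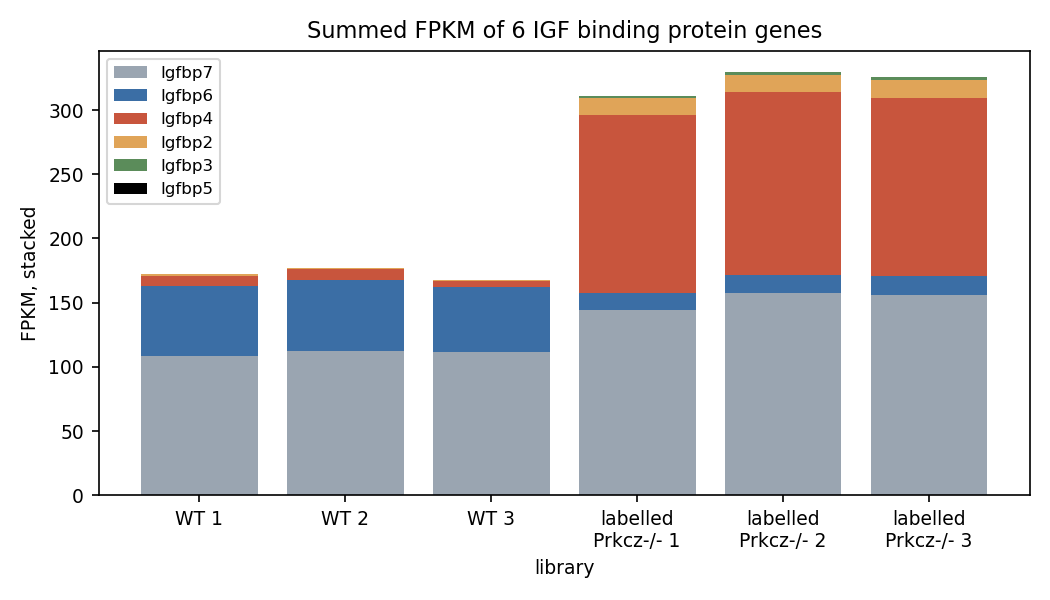
Stacked FPKM of Igfbp7, Igfbp6, Igfbp4, Igfbp2, Igfbp3 and Igfbp5 in each of the 6 libraries. The WT bars end between 168 and 177 FPKM and consist mainly of Igfbp7 and Igfbp6, and the bars of the libraries labelled Prkcz-/- end between 311 and 330 FPKM and consist mainly of Igfbp7 and Igfbp4.

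Relative to the ligand, the summed binding protein level per Igf1 transcript was 32.3, 37.7 and 40.9 in WT and 72.3, 99.4 and 93.8 in the libraries labelled Prkcz-/-, 2.39-fold higher on average. In the order of levels, WT libraries ran from Igfbp7 through Igfbp6, Igf1r, Igfbp4, Insr, Igf1, Igfbp2, Pappa and Igfbp5 to Igfbp3. The ranges of Igfbp4 and Insr overlapped there, as did those of Insr and Igf1. In the libraries labelled Prkcz-/- the order was Igfbp7, Igfbp4, Igf1r, Igfbp6, Igfbp2, Insr, Igf1, Igfbp3, Pappa and Igfbp5, and only Igfbp6 and Igfbp2, at 13.4 FPKM each, overlapped as neighbours.

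The wider pathway was described with lists of genes outside the 10 members. Their counts have to be read against 31.5% of all tested genes higher and 37.2% lower. Proteases that cut binding proteins, with their inhibitors, had 4 of 10 tested genes higher and 6 lower (median log2 change -0.29, against -0.04 over all tested genes). Htra1, a secreted serine protease, rose from 28.3 ± 0.839 to 194 ± 5.48 FPKM (SD, n = 3), and Adam12, a protease that cuts IGFBP3 and IGFBP5, from 6.21 ± 0.496 to 15.1 ± 0.733 FPKM. The urokinase gene Plau fell from 92.5 ± 1.15 to 37.8 ± 1.42 FPKM and the gelatinase gene Mmp2 from 19.2 ± 1.45 to 8.10 ± 0.313 FPKM (SD, n = 3). The highest limma adjusted p among these 4 genes was 2.18e-06.

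Proteins outside the IGFBP family that carry an IGFBP-type domain had 7 of 9 tested genes higher and 2 lower, with a median log2 change of 0.96. Htra1 belongs to this list too. Wisp2, a CCN family protein, went from 1.46 ± 0.116 to 263 ± 4.12 FPKM, and its relative Ctgf rose from 55.0 ± 12.3 to 366 ± 8.68 FPKM (SD, n = 3). Crim1, a transmembrane protein, fell from 59.6 ± 2.87 to 35.0 ± 0.674 FPKM. The highest limma adjusted p among these genes was 2.13e-06. Cell-surface and matrix partners of binding proteins had 8 of 12 tested genes higher and 4 lower (median log2 change 0.44). The heparan sulfate proteoglycan genes Sdc2 and Sdc4 rose from 40.7 to 87.9 and from 52.6 to 111 FPKM, and Itga5, the alpha chain of the fibronectin receptor, from 52.9 to 89.5 FPKM. Tgfbr2, which encodes a TGF-beta receptor, fell from 64.9 to 34.4 FPKM.

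Among adaptors and regulators that act at the IGF1 and insulin receptors, 10 of 20 tested genes were higher, 5 were lower and 5 did not pass the test (median log2 change 0.10). Grb14, an adaptor that inhibits the active insulin receptor, changed most among the named genes of this list. It measured 0.622 ± 0.179 FPKM in WT and 24.9 ± 0.773 FPKM (SD, n = 3) in the libraries labelled Prkcz-/-, a log2 change of 4.52 (limma, SE 0.118, adjusted p = 3.6e-08). The docking protein gene Irs1 rose from 4.08 ± 0.256 to 10.6 ± 0.498 FPKM and the feedback inhibitor gene Socs3 from 6.95 ± 0.319 to 19.7 ± 1.11 FPKM, while Shc1, an adaptor toward RAS, fell from 62.6 ± 1.19 to 40.6 ± 0.170 FPKM (SD, n = 3).

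PI3K, AKT and mTORC1 genes split, with 14 of 32 tested genes higher, 12 lower and 6 not called (median log2 change 0.04). The catalytic subunit gene Pik3cb rose from 8.63 to 20.96 FPKM, the mTOR inhibitor gene Deptor from 3.90 to 11.2 FPKM and the transcription factor gene Foxo3, which AKT holds out of the nucleus, from 7.32 to 20.2 FPKM. Phlpp1, a phosphatase of AKT, fell from 24.9 to 14.0 FPKM. Genes known to be induced by FOXO factors, a list that also holds the member Insr, had 11 of 19 tested genes higher and 7 lower (median log2 change 0.59). The pyruvate dehydrogenase kinase gene Pdk4 rose from 1.74 to 10.7 FPKM and Trib1 from 2.71 to 12.8 FPKM. Cited2 rose from 69.4 to 104.9 FPKM, and Bnip3, a mitophagy receptor that hypoxia also induces, fell from 29.6 to 10.7 FPKM.

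**Figure D5:**
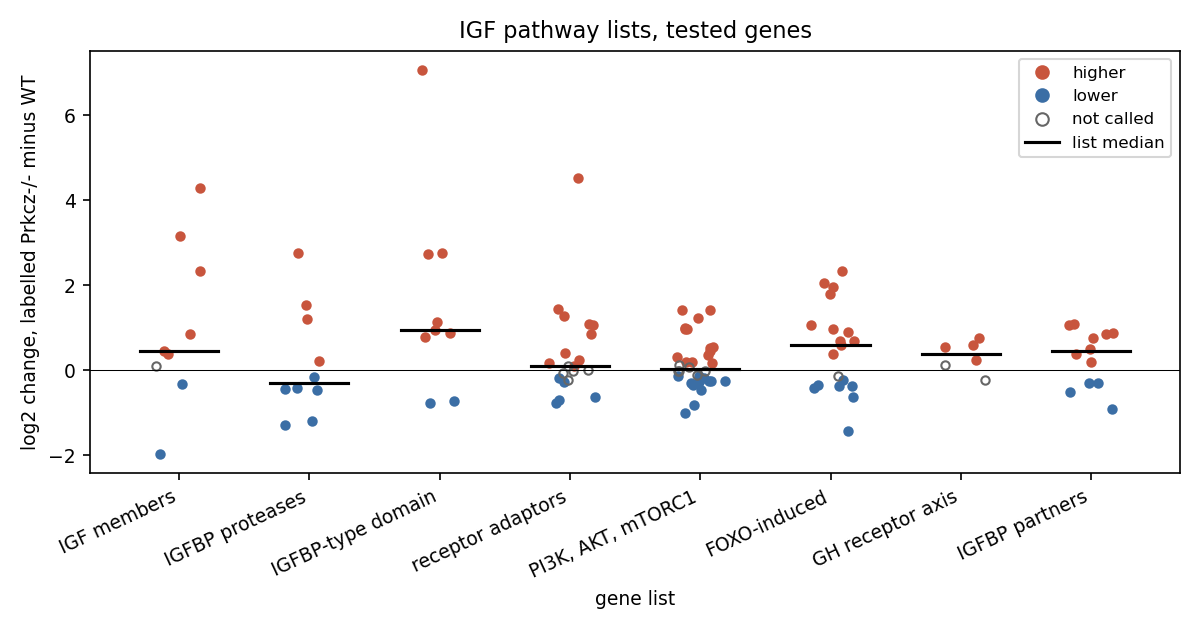
Log2 change (y axis) of every tested gene in the member group and 7 pathway lists (x axis); red points passed the limma threshold upward, blue points downward, open points did not, and black bars are list medians. List medians lie between -0.29 (proteases) and 0.96 (IGFBP-type domain), and every list with more than 9 tested genes holds calls in both directions.

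By distance between centred log2 values over the 6 libraries, the 3 tested genes most like Igf1 were Nova1 (distance 0.0731), Brf2 (0.168) and Tmem261 (0.175), with log2 changes of -0.32, -0.32 and -0.25. For Igfbp4, the member with the largest absolute change, they were Grb14 (distance 0.415), Gxylt2 (0.437) and Tgfbi (0.535). Gxylt2 measured 2.17 ± 0.348 FPKM in WT and 50.9 ± 1.25 FPKM (SD, n = 3) in the libraries labelled Prkcz-/-, and Tgfbi, which encodes a matrix protein, 6.91 ± 1.52 and 167 ± 6.28 FPKM. With 6 libraries in 2 groups, likeness to Igfbp4 mostly reflects the size of the group difference. Igf1 and its 3 nearest genes were each highest in replicate 1 within both groups, so likeness to Igf1 also follows the spread within groups. The genes of the series title were higher as well, Sox2 at 0.470 ± 0.384 and 20.9 ± 0.611 FPKM and Sfrp1 at 0.219 ± 0.0813 and 138 ± 2.60 FPKM (SD, n = 3). Sfrp2 differed less, at 11.2 ± 1.78 and 19.3 ± 1.41 FPKM (SD, n = 3).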

How the data were processed

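The authors deposited 1 table of FPKM values with 1 column per library, in which every gene is above 0 in at least 1 library. Polyadenylated RNA was made into directional libraries and read from a single end over 76 bases, per the labels' protocols. STAR, DESeq2 and the build mm10 are named in the submitters' processing notes, without roles or versions. The sources used here do not name the counting program, annotation or strand setting.

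Since FPKM is a normalized unit, count models were not used. Genes under a mean of 0.5 FPKM were dropped, and log2(FPKM + 0.5) was tested by linear models with moderated variances and a mean-variance trend (limma 3.58.1, R 4.3.3). Tests were two-sided, with Benjamini-Hochberg adjustment over all 12130 genes and a threshold of 0.05; log2 changes understate low genes. The same fit was run on simulated data with independent noise and few changed genes, which does not vouch for the p-values here. Exact permutation tests used scipy 1.17.1.

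Depth was estimated by finding the read number at which low values of genes with a single annotated transcript became whole reads, with the gene length shortened by 200 bases, the offset that gave the clearest steps. This is an approximation. Gene positions are from GENCODE M21 (GRCm38) and promoters from RefSeq (GRCm38.p6). Insr and Pappa had no promoter entry, and that of Igf1 lay inside its annotated gene.

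The 10 members and the 9 pathway and 10 cell type lists were chosen with earlier results of these data known. Besides the members, named genes are all genes of lists of at most 8 genes, up to 4 with the smallest p from longer lists (at least 1 FPKM in the higher group), the 2 most abundant markers per cell type, Prkcz and the genes of the series title, and the 3 genes most like Igf1 and Igfbp4. Some of these are left unnamed in the text. Alternatives were other pseudocounts, filters, scalings, variance models, weights and thresholds, a replicate block, and leaving out each library.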

Additional observations from a re-analysis of the deposited data

How the results depend on the processing

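Igf1r, Insr, Igfbp2, Igfbp3, Igfbp4, Igfbp6 and Igfbp7 kept their direction and stayed past the adjusted p threshold of 0.05 under every other pseudocount, filter, scaling, variance model, weighting, replicate block and left-out library that gave a value. With a log2 change of at least 1 also required, 3 members were higher and 1 lower, and over all genes 884 were higher and 431 lower. Members called lower numbered 1 and not 2 with no filter on low values, median-ratio scaling, rescaling without short RNA genes, division by the FPKM sum, no variance trend, array weights and a threshold of 0.01, and 1 to 2 when single libraries were left out. In each case Igf1 was the call that ended; its limma adjusted p ranged from 0.00935 with quantile normalization to 0.143. Pappa turned direction with quantile normalization, at a log2 change of -0.29 (limma adjusted p = 0.0925); the cause was not tested. Leaving Igfbp7 out of the binding protein sum moved its ratio between the groups from 1.87 to 2.75 and the ratio per Igf1 from 2.39 to 3.53. It moved the difference in the share of Igfbp6 from -26.9 to -79.1 percentage points and in that of Igfbp4 from 39.6 to 71.8, since a smaller sum divides them. Leaving out single libraries gave 1.84 to 1.90 for the first ratio and 2.25 to 2.61 for the second. Over all genes, division by the FPKM sum turned the balance of calls to 4450 higher and 3532 lower, from 3825 and 4511, and scalings moved the median log2 change between -0.07 and 0.05.

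Same-numbered libraries of the groups did not deviate together (correlations across genes of 0.0599, 0.0148 and 0.00827), and not every library correlated best with its own number. No pairing by number was seen, but such correlations cannot tell whether same-numbered libraries were prepared together. With a replicate block all genes gave 3718 higher and 4375 lower calls, 6 members stayed higher and 2 lower. Low read numbers limit Igfbp5, Pappa and the WT values of Igfbp2 and Igfbp3.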

Other observations

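Genes of the growth hormone receptor axis, which induces Igf1 in liver, had 4 of 6 tested genes higher, 0 lower and 2 not called. Over all tested genes 31.5% were higher and 37.2% lower. The list median log2 change was 0.39. Jak2, the kinase of the receptor, rose from 14.2 ± 0.663 to 20.9 ± 0.776 FPKM (SD, n = 3), and the transcription factor genes Stat5a and Stat5b from 5.74 to 8.92 and from 9.60 to 11.5 FPKM. Cish, a STAT5 target that damps the pathway, rose from 2.05 ± 0.184 to 3.81 ± 0.518 FPKM (SD, n = 3). The receptor gene Ghr measured 26.8 and 29.4 FPKM (limma adjusted p = 0.0632, and 0.00296 to 0.0264 under settings that called it higher, among them leaving out WT replicate 2). Socs2 measured 11.1 and 9.32 FPKM (limma adjusted p = 0.0855, and 0.0126 to 0.05 under the settings that called it lower, among them leaving out WT replicate 3).

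Among other genes of the IGF family, Igf2r, the receptor that clears IGF2, measured 57.7 ± 4.62 FPKM in WT and 49.6 ± 0.387 FPKM in the others (SD, n = 3; limma adjusted p = 0.00885, but 0.0733 to 0.137 with 3 of the scalings). Insrr, Igfbpl1 and Igfals were at or near 0. Of the genes encoding IGF2 mRNA-binding proteins, Igf2bp2 fell from 35.3 ± 1.10 to 16.2 ± 1.14 FPKM (SD, n = 3, limma adjusted p = 1.37e-06). Igf2bp3 rose from 5.68 to 6.84 FPKM (limma adjusted p = 0.0105, but 0.0535 with quantile normalization), and Igf2bp1 measured 0.150 and 0.627 FPKM, below the filter.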
